A study of Mus musculus with 4 samples.

Results

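The genes described here are 38 members of the Myc network and of the ribosome biogenesis pathway, chosen by symbol from the 15768 genes of the deposited gene table: 4 genes of the Myc network, 6 of the RNA polymerase I machinery, 8 that encode small nucleolar ribonucleoprotein (snoRNP) proteins and nucleolar chaperones, 9 for processing of the small ribosomal subunit and 11 for processing of the large subunit. All 38 were listed in the table and all 38 passed the expression filter. The samples were bulk cultures of JoMa 1.3, an immortalised mouse neural crest stem cell line that carries an inducible Myc fused to a domain of the estrogen receptor. Cultures labelled WT had received a non-targeting siRNA pool (control siRNA) and cultures labelled Lkb1 KD a pool against Stk11, the gene of the kinase LKB1 (Lkb1 siRNA), each at 60 nM, and RNA was taken 72 h after transfection. Each group had 2 libraries, 1 in batch 1 and 1 in batch 2. The labels do not say what separates the batches, nor which of the pair of transfection reagents they name was used for which culture. All cultures grew in DMEM and F-12 with N2, B27, EGF, FGF and chick embryo extract. The described medium names no tamoxifen, the drug class that activates a Myc fused in this way. The cells are a single line, so the libraries give the spread between cultures of that line. The p-values rest on these 4 libraries alone, with the spread of each gene estimated in part from other genes.

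Myc is a transcription factor that binds DNA as a dimer with Max and raises transcription of genes for growth, among which genes for making ribosomes are the best known. Mxd proteins compete for Max and act against Myc. Ribosomes are built in the nucleolus: RNA polymerase I transcribes a long precursor RNA, snoRNPs modify it, and separate sets of assembly factors cut and fold it into the small and the large subunit. Neural crest cells are known to be sensitive to faults in this pathway, and loss of the RNA polymerase I factor treacle (Tcof1) disturbs the development of the face.

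Stk11 stood at 52.7 and 52.1 FPKM (fragments per kilobase of transcript, scaled to library depth) in the control siRNA libraries of batch 1 and batch 2, and at 36.3 and 36.9 FPKM in the Lkb1 siRNA libraries, so all 4 libraries lay on the side their labels give (log2 fold change -0.55; edgeR adjusted p = 0.0378, SE 0.0659). Depth ran from 17426719 to 19324675 counts over all genes of a library, and the batch 2 library was the deeper one in both groups. Of 12 neural crest markers chosen, Sox10 and Foxd3 had no entry in the gene table. Of the 10 measured, 9 were above 1 FPKM in every library, and Ngfr was not, at 0.51 to 0.80 FPKM. Of 9 enteric and neuronal markers chosen, 3 were measured and 2 were above 1 FPKM in every library. Of 7 glial markers chosen, 4 were measured and 1 was above 1 FPKM in every library. Of 5 endothelial, 3 epithelial and 2 macrophage markers measured, 0 were above 1 FPKM in every library. The 5 fibroblast markers measured, all above 1 FPKM in every library, summed to 686 and 558 FPKM in batch 1 (control siRNA, then Lkb1 siRNA) and to 869 and 696 FPKM in batch 2. The sum, to which Col1a1 gave the most, was higher in batch 2 in both groups and lower after Lkb1 siRNA in both batches. Pdgfra was not lower after Lkb1 siRNA in batch 2, at 4.35 and 4.47 FPKM. Of 6 smooth muscle markers measured, 2, Acta2 and Tagln, were above 1 FPKM in every library. The 6 summed to 409 and 383 FPKM after control siRNA and to 328 and 309 FPKM after Lkb1 siRNA, nearly all of it from Acta2 and Tagln. Cnn1 and Myh11 were below 0.1 FPKM in all 4 libraries. Actg2 was at 0.73 to 0.96 FPKM, and Des was at 0.25 and 0.15 FPKM after control siRNA and 0.31 and 0.45 FPKM after Lkb1 siRNA. The part of either in the differences below was not tested.

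The ribosome biogenesis genes differed more between the batches than between the siRNAs. In batch 2 against batch 1, 37 of the 38 members had a log2 fold change below 0 and Mxd4 one above 0, where 51.5% of all 12222 genes tested were above 0 (51.6% with both terms in the fit, where the members split alike). The median was -0.241, beside 0.005 over all genes tested. After Lkb1 siRNA against control siRNA, 33 members had a log2 fold change above 0, where 50.2% of all genes did, with either fit. The median was 0.102, beside 0.000494 over all genes. The batch difference was the larger of both in absolute size for 35 of the 38 members, against 49.9% of all genes. Both comparisons use the same 4 libraries, so the values stand side by side and do not support each other. In bulk RNA, fewer cells of a type and less RNA per cell cannot be told apart.

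With each comparison fitted alone by edgeR's quasi-likelihood test, 0 members passed an adjusted p of 0.05 in either. For the siRNAs 0.0818% of all genes passed, 0.0327% as higher and 0.0491% as lower, with the members' adjusted p between 0.344 and 0.995. For the batches 0% of all genes passed, with adjusted p between 0.352 and 0.99. At an unadjusted p under 0.05, 1 member (Myc) was counted for the siRNAs, against 11.1% of all genes, and 23 for the batches, against 10.1% of all genes. DESeq2 and limma, fitted in the same way, called 0 members in either comparison (DESeq2 gave 36 of the 38 an adjusted p for the batches). Over all genes DESeq2 called 46 for the siRNAs and 10 for the batches. Limma called 0 of all genes in both, so its count says nothing particular about the members.

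With siRNA and batch as 2 terms of a single fit, in which each library is set against its partner of the same batch, many members passed. Between the batches 26 of the 38 members fell in batch 2 and 0 rose, where 6.62% of all genes fell and 6.3% rose. Between the siRNAs 10 members rose after Lkb1 siRNA, where 6.59% of all genes rose, and 1 (Myc) fell, where 6.99% of all genes fell. This fit leaves 1 residual degree of freedom and gains its power from the spread of other genes. The siRNA difference of Nolc1 was 0.05 within batch 1 and 0.41 within batch 2, and its SE was 0.049. That of Tcof1 was 0.06 and 0.07, with an SE of 0.0489. The SE and p-values of this fit therefore mostly reflect the spread of other genes, not that of the gene named. DESeq2 with the same 2 terms called 0 of the 36 members it gave an adjusted p for the siRNAs, where it called 1.59% of all such genes, and 2 of 25 for the batches, against 2.34%: Nop56 and Nop2, both lower in batch 2. At an unadjusted p under 0.05 it counted 5 members for the siRNAs and 20 for the batches, against 4.67% and 4.33% of 15739 genes. Those 15739 include weakly expressed genes outside the 12222 that edgeR tested, so these shares are a lower background than edgeR's. At the same threshold edgeR with both terms counted 19 members for the siRNAs, against 26.6% of all genes tested, and 33 for the batches, against 26.1%.

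**Figure D1:**
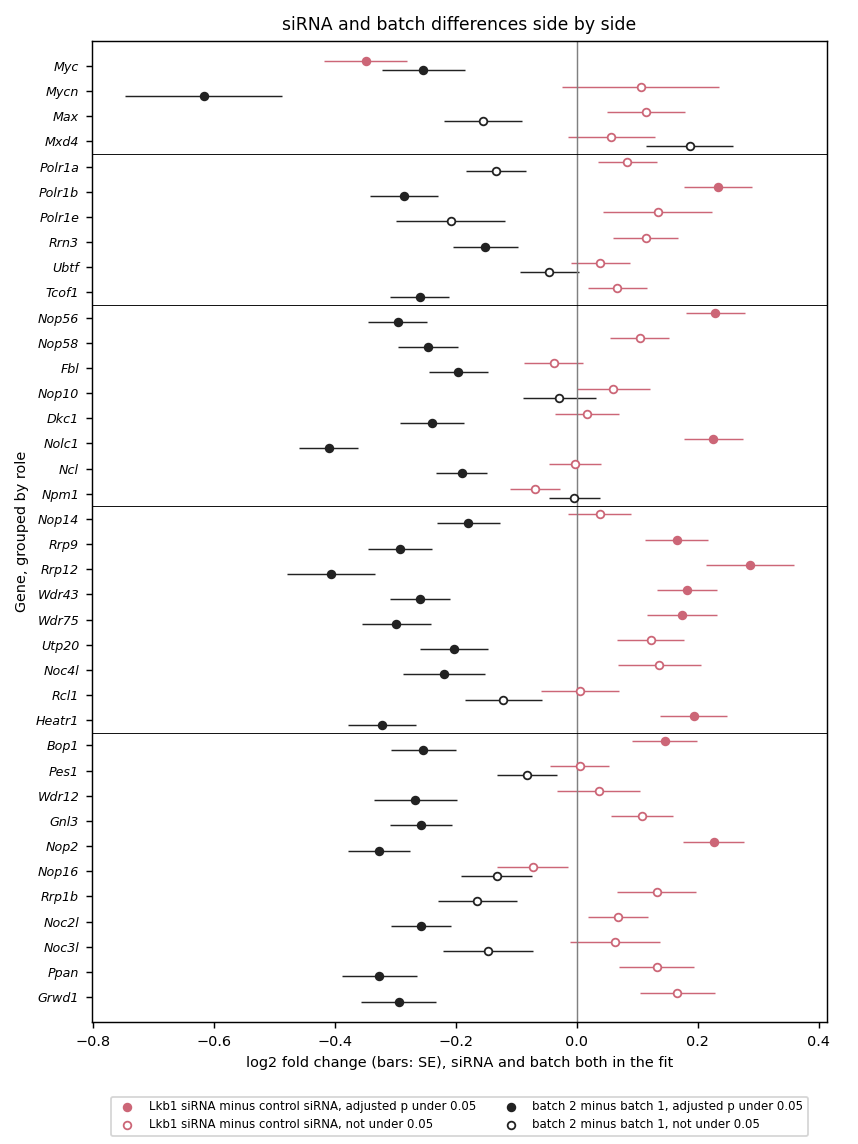
Log2 fold change of each of the 38 genes (horizontal axis, bars SE) for Lkb1 siRNA minus control siRNA (red) and batch 2 minus batch 1 (black) in the edgeR fit with both terms; filled points have an adjusted p under 0.05. Black points lie left of 0 for every gene except Mxd4, and 26 of them are filled, while 10 red points right of 0 and Myc left of 0 are filled.

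In the Myc network, Myc was the only one of the 4 genes to pass for the siRNAs, in the fit with both terms, and Myc and Mycn passed for the batches in that fit. Myc (gene ID 17869) stood at 23.4 FPKM in batch 1 and 21.2 in batch 2 after control siRNA, and at 20.15 and 15.9 FPKM after Lkb1 siRNA. Both Lkb1 siRNA libraries lay below both control libraries. Its log2 fold change was -0.34 (SE 0.117, edgeR adjusted p = 0.344) with siRNA alone in the fit and -0.35 (SE 0.0686, edgeR adjusted p = 2.05e-05) with both terms, so that it passed in the latter fit and not in the former. Between the batches Myc fell by 0.25 on the log2 scale with both terms (SE 0.0685, edgeR adjusted p = 0.00411; 0.627 with batch alone), while the ranges of the batches overlapped. DESeq2 with both terms gave an adjusted p of 0.276 for the siRNAs. Without the Lkb1 siRNA library of batch 1 the siRNA difference of Myc was -0.52 (edgeR adjusted p = 0.0282), and without that of batch 2 it was -0.18 (0.971). Without the control siRNA library of batch 2 its batch difference was -0.49 (edgeR adjusted p = 0.00971), and without the Lkb1 siRNA library of batch 2 it was -0.05 (0.901).

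Mycn (18109), the paralog of Myc known from neural progenitors and neuroblastoma, was the lowest of the 38 genes per length, at 4.66 and 2.98 FPKM after control siRNA and 5.02 and 3.41 FPKM after Lkb1 siRNA. Both batch 2 libraries lay below both batch 1 libraries, at about the same distance in both groups. Its batch difference of -0.62 was the largest in size of all members (SE 0.13, edgeR adjusted p = 0.000108 with both terms, 0.352 with batch alone), and its siRNA difference was 0.11 (SE 0.13, edgeR adjusted p = 0.66 with both terms). The sign of that siRNA difference turned with the libraries used: it was -0.203 at its lowest and 0.47 at its highest when 1 library was left out.

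Max (17187), the partner that Myc and Mycn need to bind DNA, was at 30.4 and 27.0 FPKM after control siRNA and at 33.0 and 31.45 FPKM after Lkb1 siRNA, with the control library of batch 2 lowest. It did not pass for the batches (-0.16, SE 0.0645, edgeR adjusted p = 0.0938 with both terms) or for the siRNAs (0.11, SE 0.0645, edgeR adjusted p = 0.247). Mxd4 (17122), a Max partner that represses transcription, was the single member above 0 for the batches in TMM-scaled counts (on the log2 FPKM scale the difference of Npm1, near 0, was above 0 too). It stood at 37.2 and 41.2 FPKM in the batch 1 libraries and at 44.1 and 45.8 FPKM in those of batch 2. The batches did not overlap, but the difference of 0.19 did not pass (SE 0.0717, edgeR adjusted p = 0.0638 with both terms).

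Esr1 (13982), the estrogen receptor gene, was examined because the inducible Myc of the line carries a part of that receptor. It stood at 14.3 and 13.8 FPKM after control siRNA and at 15.9 and 15.1 FPKM after Lkb1 siRNA, with no overlap. Its difference did not pass between the siRNAs (0.10, SE 0.0624, edgeR adjusted p = 0.307 with both terms) or between the batches (-0.08, SE 0.0624, edgeR adjusted p = 0.453). Whether reads of the transgene were counted under Esr1 or under Myc was not tested, so the Myc values may hold both the cell's own and the introduced gene.

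**Figure D2:**
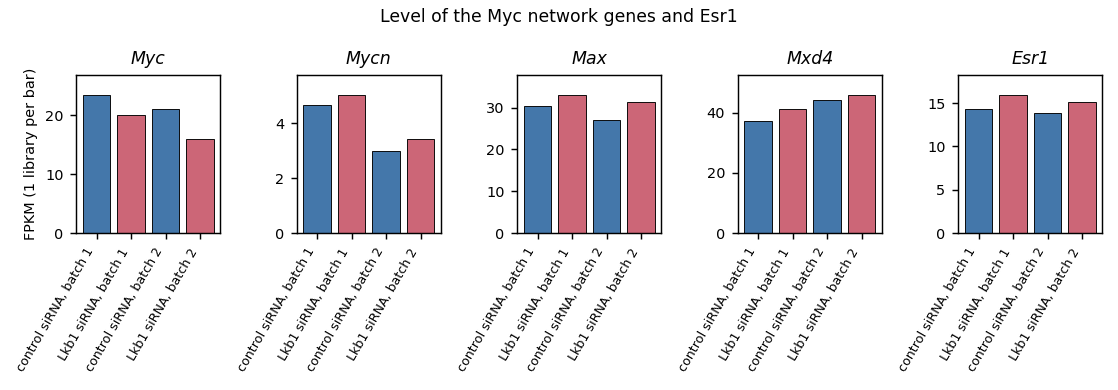
FPKM of Myc, Mycn, Max, Mxd4 and Esr1 (vertical axis, from 0, a separate scale for each gene), 1 bar per library, control siRNA in blue and Lkb1 siRNA in red. Both red bars of Myc are below both blue bars, and both Mycn bars of batch 2, at 2.98 and 3.41 FPKM, are below those of batch 1.

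Of the 6 genes of the RNA polymerase I machinery, 3 fell in batch 2 with both terms in the fit and 1 rose after Lkb1 siRNA. Polr1b (20017), the second largest subunit of the polymerase, did both. It stood at 21.1 and 16.1 FPKM after control siRNA and at 23.5 and 21.1 FPKM after Lkb1 siRNA, with the control library of batch 2 apart from the other 3. Its batch difference was -0.29 (SE 0.0565, edgeR adjusted p = 2.81e-05 with both terms) and its siRNA difference 0.23 (SE 0.0565, edgeR adjusted p = 0.000938). Tcof1 (21453), which encodes treacle, a nucleolar scaffold for rRNA gene transcription, passed for the batches and not for the siRNAs: it was at 38.5 and 41.45 FPKM in batch 1 and at 32.6 and 34.9 FPKM in batch 2 (batch difference -0.26, SE 0.0489, edgeR adjusted p = 9.2e-06; siRNA difference 0.07, adjusted p = 0.403, both terms).

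Rrn3 (106298), the initiation factor that joins the polymerase to the rRNA gene promoter, fell in batch 2 by 0.15 on the log2 scale (SE 0.0532, edgeR adjusted p = 0.0398 with both terms). Its levels were 28.5 and 30.9 FPKM in batch 1 and 25.4 and 28.9 FPKM in batch 2, so that the batches overlapped in FPKM but not in normalised counts. Polr1a (20019), the largest subunit, was close to the threshold for the batches (-0.13, SE 0.0493, edgeR adjusted p = 0.0517), and Polr1e (64424), a subunit shared by no other polymerase, did not pass at 6.81 and 6.68 FPKM in batch 1 and 5.16 and 6.72 FPKM in batch 2 (edgeR adjusted p = 0.112). Ubtf (21429), which keeps rRNA genes in an active state, was at 63.9 to 72.7 FPKM and passed in neither comparison (edgeR adjusted p = 0.607 for the batches and 0.664 for the siRNAs, both terms).

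The 8 snoRNP proteins and chaperones were the most abundant group per length, with a median between 126.5 and 161.2 FPKM in a library; with both terms in the fit 6 of them fell in batch 2 and 2 rose after Lkb1 siRNA. Nolc1 (70769), a chaperone that escorts snoRNPs to the nucleolus, had the smallest batch p of all 38 genes. It stood at 57.4 and 38.75 FPKM after control siRNA and at 61.3 and 52.45 FPKM after Lkb1 siRNA. The control library of batch 2 was again the lowest, and the batches did not overlap. The batch difference was -0.41 (SE 0.049, edgeR adjusted p = 1.97e-13 with both terms, 0.413 with batch alone) and the siRNA difference 0.23 (SE 0.049, edgeR adjusted p = 0.000172 with both terms, 0.666 with siRNA alone).

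Nop56 (67134) and Nop58 (55989) form the core of the box C/D snoRNPs, which guide methylation of rRNA, together with the methyltransferase fibrillarin (Fbl, 14113). Nop56 was at 158.9 and 125.1 FPKM after control siRNA and at 182.2 and 156.2 FPKM after Lkb1 siRNA. It fell in batch 2 by 0.30 on the log2 scale (SE 0.0484, edgeR adjusted p = 1.71e-07 with both terms) and rose by 0.23 after Lkb1 siRNA (SE 0.0484, edgeR adjusted p = 9.22e-05). Its partners fell in batch 2 as well, Nop58 by 0.25 (edgeR adjusted p = 3.44e-05) and Fbl by 0.20 (edgeR adjusted p = 0.00138), but neither passed for the siRNAs, with differences of 0.10 and -0.04 (edgeR adjusted p = 0.146 and 0.673). The siRNA difference of Fbl was below 0 in counts and above 0 on the log2 FPKM scale.

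Dkc1 (245474) and Nop10 (66181) belong to the box H/ACA snoRNPs, which convert uridine to pseudouridine. Dkc1, the enzyme, was at 43.2 and 42.1 FPKM in batch 1 and at 34.4 and 39.9 FPKM in batch 2, and fell there (-0.24, SE 0.053, edgeR adjusted p = 0.00026 with both terms). Nop10, a small structural protein, was at 128.0 to 145.8 FPKM and did not pass (edgeR adjusted p = 0.818 for the batches). The shell proteins of the nucleolus also parted: nucleolin (Ncl, 17975) went from 499.9 and 469.8 FPKM in batch 1 to 412.2 and 446.25 FPKM in batch 2 (-0.19, SE 0.0424, edgeR adjusted p = 0.000286), whereas nucleophosmin (Npm1, 18148), the highest of all members at 1814 to 1902 FPKM, had a batch difference of -0.0038 (SE 0.0416, edgeR adjusted p = 0.969). Npm1 and Wdr12 were the members whose counts were not whole numbers, so part of their reads was shared with other sequences by estimation. Npm1 was also the only member besides Myc with both Lkb1 siRNA libraries below both control libraries in normalised counts, where 21.4% of all genes lay so, but it did not pass (-0.07, SE 0.0416, edgeR adjusted p = 0.283 with both terms).

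Genes for the small subunit had the largest siRNA median of the 5 groups, 0.158, and a batch median of -0.255. With both terms in the fit 8 of the 9 fell in batch 2 and 5 rose after Lkb1 siRNA. Rrp12 (107094), which helps pre-ribosomes leave the nucleus, had the largest siRNA difference above 0 of all members, at 9.02 and 6.34 FPKM after control siRNA and 10.3 and 8.50 FPKM after Lkb1 siRNA. The control library of batch 2 was far below the other 3 (siRNA difference 0.29, SE 0.0725, edgeR adjusted p = 0.00169; batch difference -0.41, SE 0.0726, adjusted p = 2.48e-06, both terms). Wdr43 (72515), Wdr75 (73674) and Heatr1 (217995), subunits of the complex that binds the precursor RNA while it is still being transcribed, all rose after Lkb1 siRNA, by 0.18, 0.17 and 0.19 on the log2 scale (SE 0.0495, 0.0571 and 0.0559, edgeR adjusted p = 0.00395, 0.023 and 0.00788). All 3 fell in batch 2, by 0.26, 0.30 and 0.32 (edgeR adjusted p = 1.21e-05, 1.36e-05 and 1.15e-06). Heatr1, for example, was at 12.9 and 14.1 FPKM in batch 1 and at 9.70 and 12.25 FPKM in batch 2.

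Rrp9 (27966), a protein of the snoRNP that guides the first cuts, also passed in both comparisons, at 85.0 and 65.9 FPKM after control siRNA and 92.3 and 80.9 FPKM after Lkb1 siRNA (siRNA difference 0.17, SE 0.0524, edgeR adjusted p = 0.0177; batch difference -0.29, SE 0.0524, adjusted p = 2.53e-06, both terms). Nop14 (75416), Utp20 (70683) and Noc4l (100608), which act in the assembly of the small subunit precursor, fell in batch 2 by 0.18, 0.20 and 0.22 (edgeR adjusted p = 0.00813, 0.00486 and 0.016) and did not pass for the siRNAs (edgeR adjusted p = 0.698, 0.13 and 0.178). Rcl1 (59028), needed for a cut next to the small subunit rRNA, was at 31.9 to 35.4 FPKM and passed in neither comparison (edgeR adjusted p = 0.209 for the batches and 0.97 for the siRNAs).

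Among the 11 genes for the large subunit, 7 fell in batch 2 and 2 rose after Lkb1 siRNA with both terms in the fit. Nop2 (110109), a methyltransferase of the large subunit rRNA and a proliferation antigen, was at 52.7 and 39.3 FPKM after control siRNA and at 58.7 and 51.0 FPKM after Lkb1 siRNA. It fell in batch 2 by 0.33 on the log2 scale (SE 0.0506, edgeR adjusted p = 3.07e-08) and rose by 0.23 after Lkb1 siRNA (SE 0.0506, edgeR adjusted p = 0.000253). The control library of batch 2 was the lowest here too, and the batches did not overlap.

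The 3 proteins of the PeBoW complex, Pes1 (64934), Bop1 (12181) and Wdr12 (57750), which act together on the large subunit precursor, did not follow one pattern. Bop1 was at 44.1 and 48.45 FPKM in batch 1 and 36.2 and 42.3 FPKM in batch 2 and passed in both comparisons (batch difference -0.25, edgeR adjusted p = 0.000108; siRNA difference 0.15, edgeR adjusted p = 0.0483). Wdr12 was at 15.8 and 17.3 FPKM in batch 1 and 14.0 and 13.8 FPKM in batch 2, and passed for the batches and not for the siRNAs (-0.27, SE 0.0683, edgeR adjusted p = 0.00214). Pes1, at 55.0 to 61.7 FPKM, passed in neither (edgeR adjusted p = 0.28 for the batches and 0.967 for the siRNAs). Whether these 3 genes differ from each other was not tested.

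Of the other large subunit genes, Gnl3 (30877), which encodes nucleostemin, a GTP-binding protein of stem cell nucleoli, fell in batch 2 by 0.26 (edgeR adjusted p = 3.59e-05), Noc2l (57741) by 0.26 (1.49e-05), Ppan (235036) by 0.33 (1.2e-05) and Grwd1 (101612), a chaperone for a ribosomal protein, by 0.29 (0.000108). None of these 4 passed for the siRNAs, with Grwd1 closest (0.17, SE 0.062, edgeR adjusted p = 0.0526 with both terms). Ppan stood at 44.0 and 46.7 FPKM in batch 1 and at 33.3 and 40.0 FPKM in batch 2, so that the batches did not overlap. Noc3l (57753), Nop16 (28126) and Rrp1b (72462) did not pass for the batches (edgeR adjusted p = 0.185, 0.122 and 0.0752). Nop16 was one of 5 members with a lower mean after Lkb1 siRNA, besides Myc, Npm1 and, in counts though not on the log2 FPKM scale, Fbl and Ncl (-0.07, SE 0.0588, edgeR adjusted p = 0.461).

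**Figure D3:**
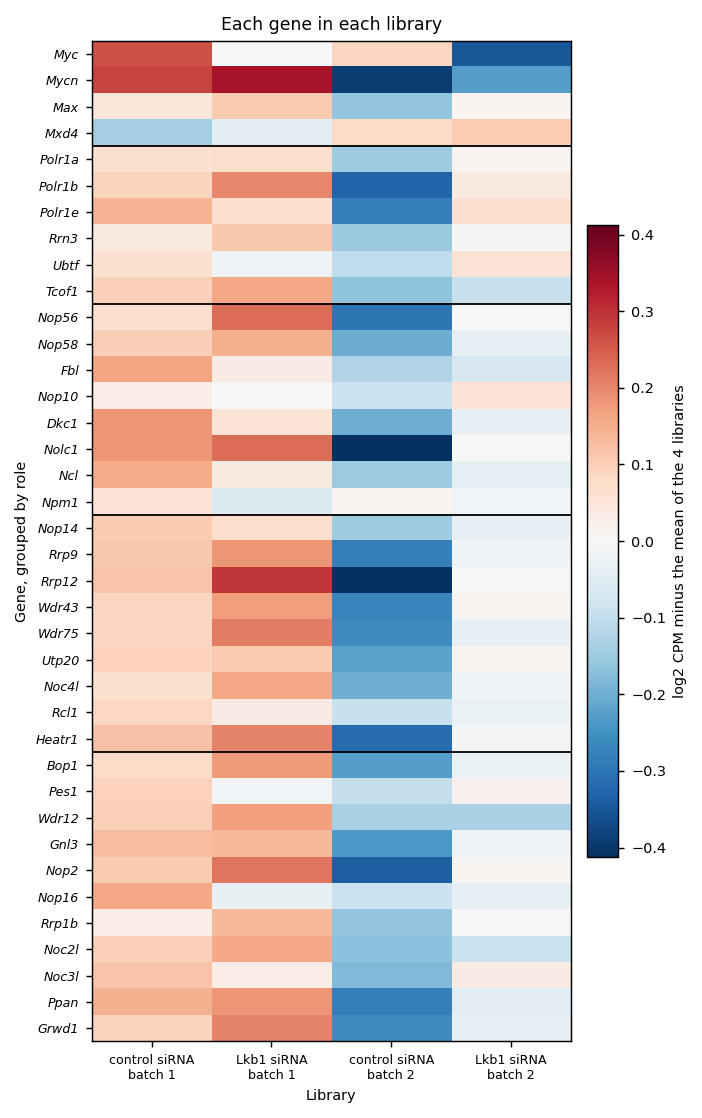
Log2 CPM (counts scaled to library depth) of each of the 38 genes in each library minus the mean of its 4 libraries (colour scale), with lines between the groups of genes by role. The column of the control siRNA library of batch 2 is the bluest, holding the lowest value of 34 of the 38 genes, and the Lkb1 siRNA library of batch 1 holds the highest value of 24.

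In CPM, the order of the libraries was much the same across the genes. The control siRNA library of batch 2 was the lowest of the 4 in 34 members, against 26.6% of all genes tested, and the Lkb1 siRNA library of batch 1 was the highest in 24, against 22.5% of all genes. The control siRNA library of batch 2 was the highest in 0 members, against 28.2% of all genes. In 30 members both batch 2 libraries lay below both batch 1 libraries, against 20.7% of all genes, and in 1 (Mxd4) above them, against 21.3% of all genes. In 0 members did both Lkb1 siRNA libraries lie above both control libraries in CPM, against 21.2% of all genes. The 10 genes that rose after Lkb1 siRNA with both terms therefore did so by their differences within each batch, across overlapping groups. In FPKM, which is scaled otherwise, both Lkb1 siRNA libraries did lie above both control libraries for Max, Polr1a, Rrn3, Nop10 and Rrp1b. The share of all genes in FPKM was not counted.

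Within batch 1, Lkb1 siRNA minus control siRNA was above 0 in 25 of the 38 members (50.3% of all genes), with a median of 0.0538 in log2 CPM. Within batch 2 it was above 0 in 35 members (50.1% of all genes), with a median of 0.166. In 24 members it was above 0 in both batches (33.8% of all genes), in 2 members, Myc and Npm1, below 0 in both (33.4% of all genes), and in 11 members below 0 in batch 1 and above 0 in batch 2 (16.3% of all genes). The share of members with the same sign in both batches, 26 of 38, was near that of all genes, 67.2%. Nolc1 showed the widest gap among the genes that passed, at 0.05 in batch 1 and 0.41 in batch 2. With 1 library of each group in a batch, the difference between the batches in the siRNA effect could not be tested.

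**Figure D4:**
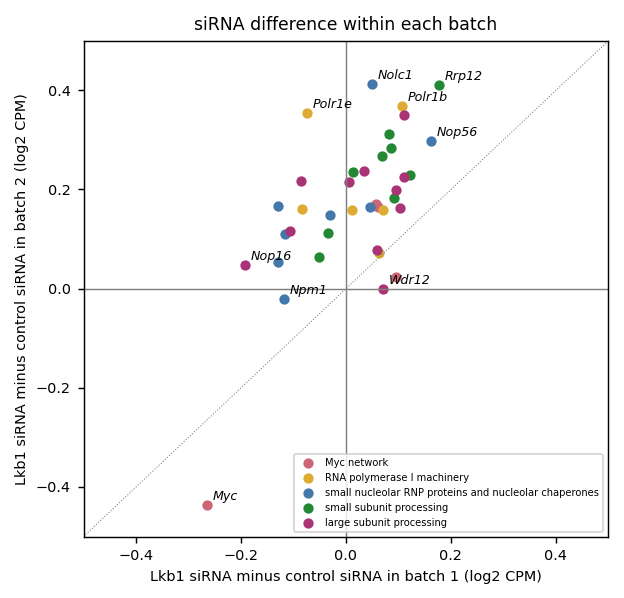
Lkb1 siRNA minus control siRNA in log2 CPM within batch 1 (horizontal axis) and within batch 2 (vertical axis), 1 point per gene, coloured by role; the dotted line marks equal differences. Most points lie above the line, 35 of the 38 genes are above 0 in batch 2 and 25 in batch 1, and Myc lies alone at the lower left, at -0.27 and -0.44.

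With siRNA alone in the fit, the sign of the siRNA median turned on 1 library. Such a fit of 3 libraries is not paired, so that leaving out 1 library also sets unequal batches against each other. Without the control siRNA library of batch 2, when batch 2 is left in the Lkb1 siRNA group only, the median siRNA difference of the members was -0.0457 and 27 of the 38 were lower after Lkb1 siRNA. Of the 10 genes that rose with both terms, 4 then had a difference below 0 with siRNA alone in the fit: Nolc1 (-0.0626), Rrp9 (-0.0268), Heatr1 (-0.0199) and Bop1 (-0.00408). Within batch 1, which does not use that library, all 4 were above 0, at 0.05, 0.07, 0.08 and 0.10 in log2 CPM, as was the median of the members, 0.0538. Without the control siRNA library of batch 1 the median was 0.226. Without the Lkb1 siRNA library of batch 1 or of batch 2 it was 0.046 and 0.181. The batch difference kept its sign under each omission, with a median between -0.31 and -0.144 and between 35 and 37 members lower in batch 2. It was smallest without the control siRNA library of batch 2. Measured within the groups, the batch median was -0.301 after control siRNA, with 37 members lower in batch 2 (48.4% of all genes), and -0.157 after Lkb1 siRNA, with 31 members lower (49.9% of all genes).

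Other genes of the same pathway, in lists that do not hold the 38 members, showed the batch difference as well. The lists here and below were measured in the same 4 libraries and chosen with earlier results of these data known. They are therefore no independent observation of that difference. Of 43 further small subunit processome genes tested, 42 had a lower mean in batch 2, with a median of -0.141, and 15 fell and 0 rose with both terms in the fit, where 6.62% of all genes fell and 6.3% rose. Of 47 further large subunit assembly genes 45 were lower, with a median of -0.165, and 25 fell and 0 rose. Among them Rpf2, which brings a small rRNA into the large subunit, was at 37.2 and 37.9 FPKM in batch 1 and 26.5 and 32.2 FPKM in batch 2 (-0.38, SE 0.07, edgeR adjusted p = 5.68e-06), and Ltv1, a factor for nuclear export of the small subunit, was at 20.8 FPKM in both batch 1 libraries and at 15.0 and 16.5 FPKM in batch 2 (-0.40, SE 0.0808, edgeR adjusted p = 4.52e-05). The lists of further RNA polymerase I genes (20 tested, median -0.0738, 4 fell), snoRNP genes (10, -0.137, 3 fell), RNA exosome genes (15, -0.103, 4 fell) and RNA polymerase III genes (22, -0.0691, 3 fell and 1 rose) lay on the same side, with smaller medians. Ddx21, a helicase that joins transcription and processing of rRNA, had the smallest batch p of the further RNA polymerase I genes (-0.34, SE 0.0486, edgeR adjusted p = 1.58e-09), and Polr3g, a polymerase III subunit of stem cells, that of its list (-0.53, SE 0.0865, edgeR adjusted p = 1.23e-07).

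Genes known to be induced by Myc outside the nucleolus were lower in batch 2 in 31 of 32 cases, with a median of -0.178, and 23 fell and 0 rose with both terms in the fit. Odc1, the first enzyme of polyamine synthesis, was at 133.1 and 134.05 FPKM in batch 1 and at 107.4 and 112.4 FPKM in batch 2 (-0.30, SE 0.0484, edgeR adjusted p = 1.27e-07). Nme1, a nucleoside diphosphate kinase, was at 199.8 and 193.5 FPKM in batch 1 and 155.4 and 164.9 FPKM in batch 2 (-0.30, SE 0.0499, edgeR adjusted p = 2.14e-07). The batches were well apart in both genes and the siRNA groups overlapped. Genes known to be repressed by Myc went the other way: of 12 tested, 1 was lower in batch 2, the median was 0.148, and 5 rose and 0 fell. Ndrg1, a stress gene that Myc represses, was at 35.4 and 39.95 FPKM in batch 1 and 46.5 and 49.8 FPKM in batch 2 (0.34, SE 0.0512, edgeR adjusted p = 1.1e-08). The list of other Myc network genes had a batch median of 0.000719 (15 tested, 1 rose and 2 fell). In it Ruvbl2 fell in batch 2 (-0.26, SE 0.049, edgeR adjusted p = 7.84e-06 with both terms). Mxd1, another repressing partner of Max, rose (0.50, SE 0.119, edgeR adjusted p = 0.000929 with both terms). It stood at 1.74 and 2.44 FPKM in batch 1 and at 3.15 and 2.79 FPKM in batch 2. Its batch difference in log2 CPM was 0.82 after control siRNA and 0.19 after Lkb1 siRNA.

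The siRNA medians of the further lists were below the batch medians in size for some lists and above them for others. They were 0.062 for the small subunit genes (8 of 43 rose and 0 fell with both terms), 0.07 for the large subunit genes (9 of 47 rose and 0 fell) and 0.0837 for the RNA polymerase I genes (7 of 20 rose and 0 fell), where 6.59% of all genes rose and 6.99% fell. For the last list the siRNA median was the larger one in size, as it was for the RNA polymerase III genes (0.0887, with 2 of 22 rising and 0 falling) and the other Myc network genes (0.0721, with 1 of 15 rising and 1 falling). The snoRNP genes were at 0.0326 (0 of 10 passed) and the exosome genes at 0.0201 (2 of 15 rose and 0 fell). The medians were -0.0177 for the Myc-induced genes outside the nucleolus (3 of 32 rose and 4 fell) and -0.042 for the Myc-repressed genes (0 of 12 rose and 1 fell). Top1, the topoisomerase that relaxes transcribed DNA, rose to 62.0 and 61.1 FPKM from 52.6 and 49.4 FPKM (0.24, SE 0.0485, edgeR adjusted p = 4.59e-05 with both terms), and Nol6, a nucleolar protein of the small subunit precursor, to 18.6 and 18.95 FPKM from 15.5 and 14.9 FPKM (0.27, SE 0.0577, edgeR adjusted p = 9.19e-05). In both genes the siRNA groups did not overlap, while the batches did. In the list of nucleolar stress genes Trp53, which halts growth when ribosome production is disturbed, rose with siRNA alone in the fit (0.74, edgeR adjusted p = 0.026). The median of that list was -0.0182 (14 tested; 3 rose and 1 fell with both terms).

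**Figure D5:**
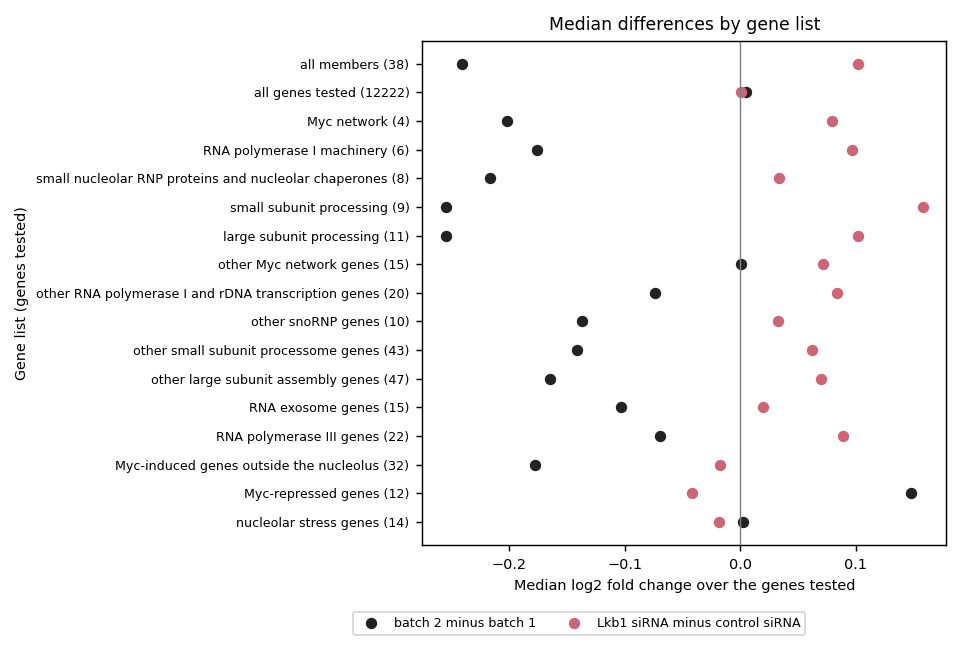
Median log2 fold change over the genes tested in each list (number in brackets), for batch 2 minus batch 1 (black) and Lkb1 siRNA minus control siRNA (red), each with that term alone in the fit. The 5 groups of members lie between -0.255 and -0.176 for the batches, all genes tested at 0.005, and the Myc-repressed genes at 0.148.

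The transcript table listed 97 RefSeq transcripts of the members, of which 84 passed the filter. With edgeR 0 of these passed in any of the fits, where 0% of all 34279 transcripts tested passed. At an unadjusted p under 0.05, 3 of the 84 member transcripts were counted for the siRNAs, where 6.75% of all transcripts were, and 7 for the batches, against 5.81%. With both terms it was 4 for the siRNAs, against 5.15%, and 17 for the batches, against 4.61%. Since 0 of all transcripts passed, the adjusted threshold could not show whether member transcripts differ between the batches. Counts of transcripts that share a gene are estimated. For Max, NM_001146176 held 71.3 to 79.0% of the gene's counts in a library and NM_008558 17.9 to 23.8%, ranges in which the siRNA groups overlapped. For Nolc1, NM_001039353 held 36.2 to 47.5% and NM_001039351 33.7 to 47.2%, also with overlapping siRNA groups. By batch, the shares of the Nolc1 transcripts were as follows, with the control siRNA library first. NM_001039353 held 47.5 and 44.9% in batch 1 and 43.5 and 36.2% in batch 2. NM_001039351 held 33.7 and 40.1% in batch 1 and 42.1 and 47.2% in batch 2. NM_001039352 held 5.02 and 6.14% in batch 1 and 8.86 and 16.5% in batch 2. NM_053086 held 13.8 and 8.91% in batch 1 and 5.56 and 0.00888% in batch 2. The shares of a gene's transcripts depend on each other, since a rise in some lowers the rest. How many of all transcripts part by batch was not counted, and these shares were not tested.

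Since Myc with Max binds the E-box CACGTG, the RefSeq promoter windows of the members (build GRCm38.p6, 250 bases before to 50 bases after the start) were searched for those letters, which read the same on both strands. Windows were matched for 32 of the 38 members, and Myc, Fbl, Npm1, Tcof1, Rrp12 and Bop1 had no matched window. The motif was in a window of 8 of the 32 genes, 25.0% (exact 95% binomial interval 11.5 to 43.4%, for counting error only), against 10.9% of the 12388 genes of the gene table with a window and 8.1% of all 27025 genes. The 32 genes were chosen by symbol and are no random draw, and the difference between the shares was not tested. Of the 9 matches, 4 lay before the start, 1 across it and 4 after it, and in the 250 bases before the start alone the share was 9.4% of the members against 9.3% of the genes of the gene table. Each match is shown in 30 bases, 5′ to 3′ on the gene's strand, with the motif in capitals, because these are the members in which the letters of the Myc site stand close to the start. In brackets are the window and strand, and the distance of the motif's first base from the start base, which counts as 0.
Max (chr12:76962234-76962263, minus strand, distance -3): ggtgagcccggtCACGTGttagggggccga
Mxd4 (chr5:34187912-34187941, minus strand, distance -219): gggctgggccacCACGTGctgttgctaagc
Rrn3, upstream match (chr16:13780472-13780501, plus strand, distance -215): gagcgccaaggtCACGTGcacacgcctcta
Rrn3, downstream match (chr16:13780639-13780668, plus strand, distance -48): ttacgctctgctCACGTGggccgcgtcccg
Nop2 (chr6:125131811-125131840, plus strand, distance -60): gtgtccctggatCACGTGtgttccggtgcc
Pes1 (chr11:3963965-3963994, plus strand, distance 2): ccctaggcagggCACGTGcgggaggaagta
Wdr43 (chr17:71616220-71616249, plus strand, distance 17): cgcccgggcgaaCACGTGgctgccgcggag
Grwd1 (chr7:45830740-45830769, minus strand, distance 34): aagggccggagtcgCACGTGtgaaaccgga
Utp20 (chr10:88826765-88826794, minus strand, distance 37): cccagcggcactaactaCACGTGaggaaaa

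Rrn3 was the single member with a pair of matches in a window. Its 250 bases before the start, chr16:13780449-13780698 on the plus strand, are shown whole with both motifs in capitals.
Rrn3: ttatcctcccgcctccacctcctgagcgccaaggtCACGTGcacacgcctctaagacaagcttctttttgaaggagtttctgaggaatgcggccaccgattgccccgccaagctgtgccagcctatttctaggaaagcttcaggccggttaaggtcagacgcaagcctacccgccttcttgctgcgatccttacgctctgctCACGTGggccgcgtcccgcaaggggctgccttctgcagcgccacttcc

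Values of the 8 members with the motif and the 24 without it are given side by side, and their difference was not tested. The median batch difference was -0.176 with the motif (from -0.32 for Nop2 to 0.186 for Mxd4) and -0.241 without it (from -0.615 to -0.0273), and the median siRNA difference was 0.115 with it and 0.101 without it. The genes with the largest batch differences, Mycn, Nolc1 and Rrp12, are not among the 8: Mycn and Nolc1 had no match in their windows, and Rrp12 had no matched window. A match describes letters in a window, and a window without one says nothing about binding of Myc.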

How the data were processed

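RNA-seq read pairs of 150 bp from 4 libraries were summarised by the authors. The submitters' processing notes name HISAT2 (2.0.4), Bowtie2 (2.2.5), RSEM (1.2.8) and GRCm39; an annotation release is not given in the sources used here. The authors deposited, as the headers of both tables name them, an estimated count (expected count), FPKM, TPM and a normalised read count, a signal scaled per library. TPM and the normalised counts entered no test. Doubled decimal points in 41 gene and 96 transcript cells (1 a Dkc1 count) were read as 1 point, which makes each group mean equal that of its libraries. Of the gene counts 5.73 to 5.97% per library were not whole.

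Rounded counts were fitted by edgeR 4.0.16 (R 4.3.3; quasi-likelihood, robust, TMM, minimum count 10), with siRNA alone, batch alone, or both terms, and transcripts likewise. P-values were adjusted by Benjamini-Hochberg over all 12222 genes (34279 transcripts) tested. SE were derived from F. CPM within-batch differences used a prior count of 0.5. DESeq2 1.42.0, limma 3.58.1 on log2(FPKM + 1) or log2(FPKM + 0.1), other scalings and filters, and omission of each library were the alternatives. The labels give same-numbered libraries a shared batch, which pairs them; their deviations from the group means correlated at 0.183 across genes. The members and gene lists were chosen with earlier results of these data known. All 38 members are named, with Stk11, Esr1 and, of each further list, up to 4 genes with the smallest p.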

Additional observations from a re-analysis of the deposited data

How the results depend on the processing

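The median difference of the members kept its sign in both comparisons under every change of scaling, filter, pseudocount and test tried, from 0.0947 to 0.148 for the siRNAs and from -0.247 to -0.213 for the batches. With 1 library left out, which unpairs the batches, the siRNA median did not keep it, running from -0.0457 (without the control siRNA library of batch 2) to 0.226, while the batch median ran from -0.31 to -0.144. Pairing the libraries by batch (the replicate block) moved the members called from 0 to 11 for the siRNAs and from 0 to 26 for the batches, and the genes called from 10 to 1660 and from 0 to 1579. DESeq2 with the block called 0 and 2 members and 119 and 97 genes. Leaving out a library gave 0 to 8 members and 66 to 253 genes for the siRNAs, and 1 to 16 members (16 without the Lkb1 siRNA library of batch 2) and 57 to 236 genes for the batches. The siRNA count of genes was 3 by library size, 3 with at least 5 CPM, 45 with at least 1 count, 46 with DESeq2 and 0 with limma at either pseudocount (1313 and 1323 genes at an unadjusted p under 0.05). The batch count was 23 with at least 1 count and 10 with DESeq2. Transcript counts were 0 in every edgeR fit. The E-box share was 65.6% with the looser motif CANNTG (68.8% of genes of the gene table) and 9.4% before the start only. Near 0, signs turned for Ncl (siRNA difference 0.0236 by library size, 0.0125 and 0.0126 with limma), Fbl (0.0128 and 0.0129 with limma), Rcl1 and Pes1 (-0.00258 and -0.00484 with at least 1 count), and for the batch difference of Npm1 (0.0139 by library size, 0.0091 and 0.00911 with limma). Leaving out 1 library turned the siRNA sign at least once in 26 members, whose differences ran as follows: Mycn -0.203 to 0.47, Mxd4 -0.0493 to 0.173, Polr1a -0.0204 to 0.188, Polr1e -0.0739 to 0.353, Ubtf -0.0453 to 0.123, Tcof1 -0.0638 to 0.204, Nop58 -0.0461 to 0.261, Fbl -0.181 to 0.107, Nop10 -0.00014 to 0.12, Dkc1 -0.175 to 0.213, Nolc1 -0.0626 to 0.532, Ncl -0.155 to 0.149, Nop14 -0.0874 to 0.165, Rrp9 -0.0268 to 0.367, Utp20 -0.0335 to 0.282, Rcl1 -0.084 to 0.0953, Heatr1 -0.0199 to 0.42, Bop1 -0.00408 to 0.303, Pes1 -0.0928 to 0.101, Wdr12 -0.118 to 0.184, Gnl3 -0.0699 to 0.294, Nop16 -0.198 to 0.0527, Noc2l -0.0611 to 0.207, Noc3l -0.0843 to 0.215, Ppan -0.0758 to 0.354, Grwd1 -0.00497 to 0.349. It turned the batch sign in 3 members: Ubtf -0.132 to 0.0343, Nop10 -0.109 to 0.0449, Npm1 -0.0662 to 0.0545. The cause was not tested. With 2 libraries per group, a difference near the spread between cultures was not detectable, and a lone library was assumed to vary like the other group. Labels give no reagent or date per batch, so these cannot be told apart from it.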
